A study of Caenorhabditis elegans with 2 samples.

Results

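The genes described here encode the fibrous organelles of Caenorhabditis elegans, the epidermal attachments that pass muscle force to the cuticle. They were chosen by symbol in the WBcel235 annotation and number 7 of 19973 protein-coding genes: let-805, mup-4, mua-3, vab-10, vab-19, ifb-1 and ifa-3. The measurement was the binding of UNC-120, an SRF-like factor that controls muscle genes, by ChIP-seq with an antibody against GFP. The animals were strain OP659, which carries unc-119(tm4063) on chromosome III and the transgene wgIs659, and which expresses UNC-120 with a GFP-FLAG tag at its C terminus. Whole embryos of mixed stage and both sexes, pooled, were taken 3 h after egg bleaching, as 2 biological replicates of 1 group. No second condition or untagged strain is among the samples, so that no difference between conditions could be tested. Whole embryos mix muscle, epidermis and all other tissues, and the lists do not tell in which cells a region was occupied.

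Body wall muscle lies under the epidermis, separated from it by a thin basement membrane. Opposite each muscle the epidermis is spanned by fibrous organelles, structures of the hemidesmosome type, in which receptors on the basal and the apical face are joined through the cytoplasm by a plakin and by intermediate filaments. Loss of these proteins detaches muscle from the body wall in embryos or larvae. UNC-120 is known for its action in muscle, on the other side of this junction.

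Of the 7 genes, 2 had a reproducible UNC-120 peak, the plakin gene vab-10 with 2 summits and the intermediate filament gene ifa-3 with 1. A summit is the highest point of a region in the authors' ce11 list of reproducible peaks, selected by irreproducible discovery rate (IDR), and it was counted from 5000 bp upstream of a gene to its 3' end. By this rule 19.7% of all protein-coding genes had a summit, 3931 of 19973, and 2 of 7 is a count too small to set apart from that share. The 3 summits were not among the stronger peaks. Their ranks were 1802, 2006 and 2326 of 2946 nuclear peaks, all below the middle of the list at rank 1474. The transmembrane receptors let-805, mup-4 and mua-3, the ankyrin repeat gene vab-19 and the filament gene ifb-1 had none.

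The length of the searched window matters for such a count, because 6 of the 7 genes fell in the quintile with the longest windows, from 9.32 to 108 kb. In that quintile 32.5% of all genes had a summit and 1 of the 6 members did. In the next quintile, from 7.49 to 9.32 kb, the share was 22.1%, and its single member ifa-3 had a summit. Windows of 20 kb or more belonged to 3 members, vab-10, let-805 and mua-3. Of these 1 had a summit, against 46% of the 404 genes with windows of that length. With the narrower rule of 1000 bp upstream to 500 bp downstream of any annotated transcript 5' end, only vab-10 was called, and 9.27% of all genes were.

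**Figure D1:**
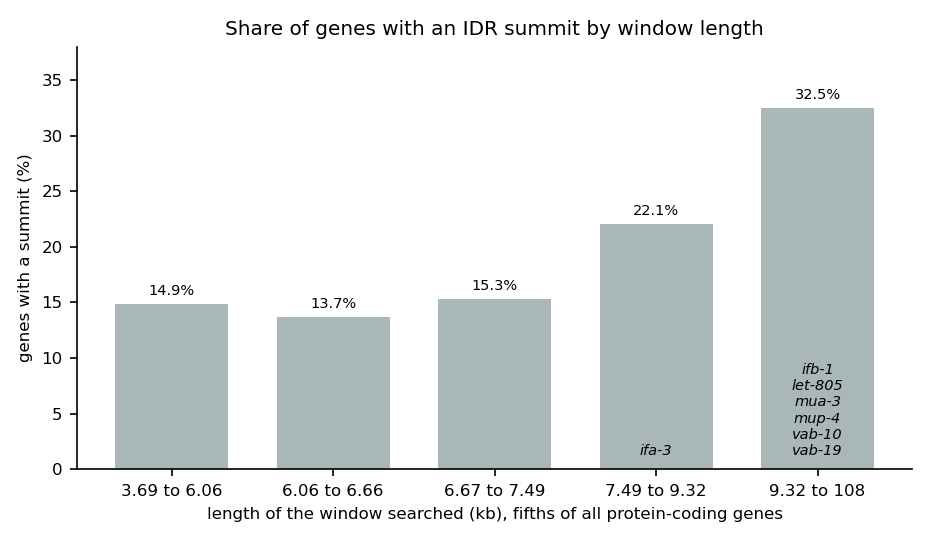
Share of protein-coding genes with an IDR summit (vertical axis, %) in quintiles of the length of the searched window (horizontal axis, kb), with the 7 fibrous organelle genes written into the bar they belong to. The share is 32.5% in the quintile of the longest windows, which holds 6 of the 7 genes.

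The basal receptor is encoded by let-805, which spans 2658083 to 2681112 on chromosome III (ce11, plus strand). Its product myotactin is a transmembrane protein that faces the muscle. No region of its 28 kb window reached the IDR list, so the authors' longer ranked lists of peaks and background were read. The pooled list held 13 regions there, and the strongest had a score of 96.1 and rank 7352, with 52.1% of the score of 185 at which the IDR list ends. It lay 22750 bp into the gene, in untranslated exon sequence near its 3' end. The match to this region had a score of 36.4 and rank 13782 in replicate 1 and a score of 54.5 and rank 8665 in replicate 2. Both ranks were far outside the first 2946. The highest ranked region of each replicate was at another place, 1698 bp upstream of the gene at rank 11934 in replicate 1, and 17483 bp into the gene at rank 6152 in replicate 2. The latter lay in an intron, 785 bp upstream of the internal 5' end of transcript H19M22.2c.1, and had no match in replicate 1. Short sequences were searched only at the IDR summits of vab-10 and ifa-3 and at the best pooled region of each other member. Among these, the window of 100 bp on each side of the pooled let-805 summit held the single CArG box, the site type of SRF proteins, found within that distance. It is shown for that reason, with 10 bases on each side, on the strand of the gene, and the capitals mark the box.
let-805, chrIII:2680745-2680774: ataaaaactgCCTAATTTGGaggacaaaaa
The box was centred 74 bp from the summit. A CArG box stood within 100 bp of 2.9% of the pooled regions and of 1.46% of the IDR summits.

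The apical receptors that anchor the structure to the cuticle are encoded by mup-4 and mua-3, transmembrane proteins with repeats of the EGF type. At mup-4, from 7479680 to 7489105 on chromosome III (minus strand), the strongest of 5 pooled regions lay 1124 bp upstream of the gene's only annotated 5' end. Its score was 83.9 and its rank 9334, and its match had rank 9117 (score 45.3) in replicate 1 and rank 14657 (score 42) in replicate 2. Of the 5 regions 4 were matched in both replicates, all of them at low rank. The sequence around this summit is shown because this was the highest ranked intergenic region at mup-4 or mua-3. It missed the IDR list, with 45.5% of the lowest IDR score, and 62.8% of genes in the same quintile of window length had a better region. The sequence is also shown because it held the GATA type site TGATAA 2 times, marked by capitals. It is written on the strand of the gene.
mup-4, chrIII:7490129-7490329: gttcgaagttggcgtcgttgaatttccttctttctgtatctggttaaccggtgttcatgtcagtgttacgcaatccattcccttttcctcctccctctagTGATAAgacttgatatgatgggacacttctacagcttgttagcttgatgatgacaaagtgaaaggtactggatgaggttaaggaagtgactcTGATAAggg
One of the TGATAA sites was centred 2 bp from the summit and the other 94 bp from it. The best pooled region of let-805 also held a TGATAA, 90 bp from its summit. TGATAA, read on both strands, was found in 13% of pooled regions of this size and in 10.6% of IDR windows.

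At mua-3, from 10160697 to 10183529 on chromosome III (plus strand), the pooled list held 5 regions in 27.8 kb. The strongest had a score of 93.1 and rank 7771 and lay 370 bp downstream of the 5' end of the shorter transcript K08E5.3b.1, in untranslated exon sequence. Replicate 2 had a match at rank 9954 with a score of 50.9, and replicate 1 had none within 200 bp. None of the 5 pooled regions was matched in both replicates, the lowest share of the 7 genes. Another 2 of them, 848 and 1636 bp upstream of mua-3, lay within the transcribed neighbour K08E5.5, whose 5' end was nearer.

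The plakin gene vab-10 runs from 11747424 to 11804991 on chromosome I (minus strand), the longest of the 7 genes at 57.6 kb. It encodes a spectraplakin, whose plectin-like forms sit in the fibrous organelle and whose longer forms link to the cytoskeleton. Of its 2 summits the stronger, at 11792955, had a score of 242 and rank 2006. Its score was 110.0 in replicate 1 (rank 2244) and 135 in replicate 2 (rank 1959), with summits 0 and 1 bp from the pooled one. Both replicates thus placed it within the first 2946 regions and at nearly the same base. The summit lay 12036 bp downstream of the gene's first 5' end, in an intron of the 2 transcripts that span it, and 830 bp upstream of the 5' end of transcript ZK1151.1e.1. In the 1000 bp downstream of this summit 7 of the 14 annotated vab-10 transcripts begin, 5 of them at position 11792066. The peak thus stood before a group of internal 5' ends and far from the first one.

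The second vab-10 summit, at 11807969, was intergenic and lay 2978 bp upstream of the gene's first 5' end, that of transcript ZK1151.1a.1. The neighbouring gene T02G6.4 ended 1163 bp away on its other side and is read in the same direction. The summit had a score of 219.7 and rank 2326. Its scores were 89.9 in replicate 1 and 132 in replicate 2, with ranks of 2976 and 2032, so that replicate 1 alone left it just outside the first 2946 regions. No other gene's window held either vab-10 summit, and no noncoding gene was annotated within 200 bp of them. The repeat GAGAGAGA was found 0 to 4 bp from the summit upstream of vab-10, and 84 to 90 bp from the one in the intron. The E-box CAGCTG was found 32 bp from the upstream summit, and neither window held a CArG box, CACCTG or TGATAA.

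Below these peaks the vab-10 window was dense in weak regions. The pooled list held 57 regions in its 62.6 kb, replicate 1 held 61 and replicate 2 held 42. This was 9.11 pooled regions per 10 kb, a density above that of 97.1% of all protein-coding genes and above that of 96.8% of genes in the quintile of longest windows, whose median was 3.31. Of the 57 regions 55 were below the IDR list, with a median score of 71.3 for all 57, and 33 were matched in both replicates. Their summits fell in coding exons in 18 cases (31.6%), and coding sequence made up 37.8% of the window. The other members ranged from 1.27 per 10 kb at ifa-3 to 7.89 at vab-19. Whether transcription or open chromatin along vab-10 goes with this density was not tested.

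The linker gene vab-19 encodes an ankyrin repeat protein of the Kank family that is needed to keep the organelles in place. It lies on chromosome II from 2443279 to 2450947 (plus strand). Its window was also dense, with 10 pooled regions in 12.7 kb, yet the strongest had a score of 89.8 and rank 8284. That region lay 4109 bp upstream, with rank 12941 (score 37.7) in replicate 1 and rank 9105 (score 53.1) in replicate 2. A weaker region 160 bp downstream of the 5' end, at rank 12745, was matched in replicate 2 at rank 10428 and had no match in replicate 1. Of the 10 regions 2 were matched in both replicates.

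**Figure D2:**
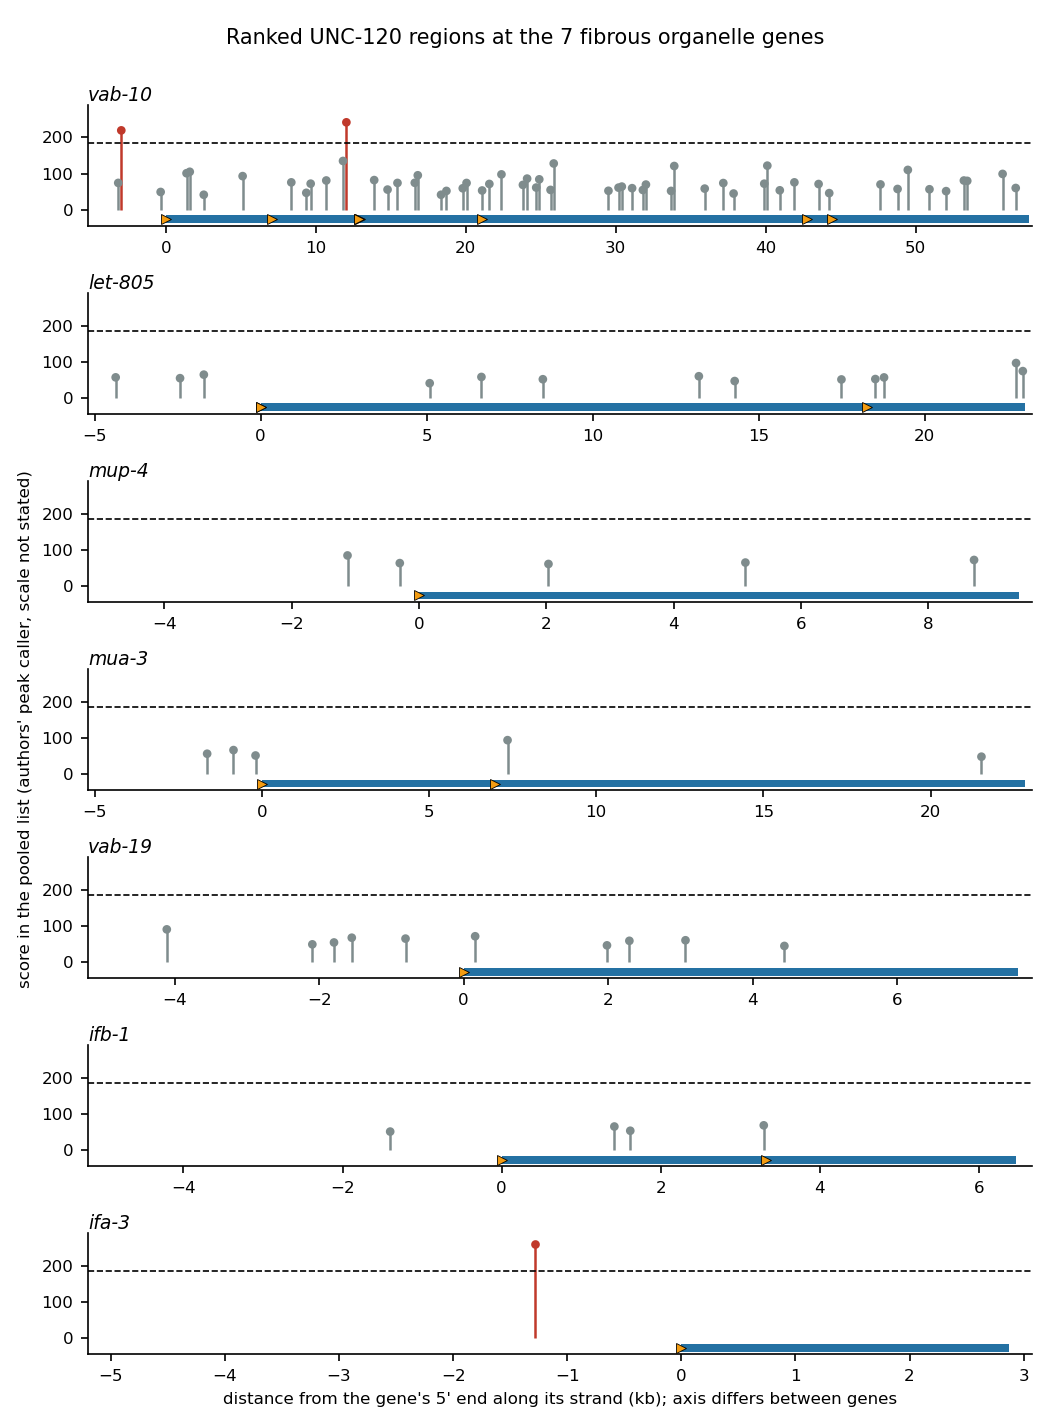
Scores of all regions of the authors' pooled list (vertical axis, score of the peak caller) along each of the 7 genes, by distance from the gene's 5' end along its strand (horizontal axis, kb, different in each panel). The dashed line is the lowest score of the IDR list, 185; red points are at or above it, the blue bar is the gene and orange arrowheads are annotated 5' ends. The 2 red points at vab-10 stand 2978 bp upstream and 12036 bp inside the gene, the latter just before a group of 5' ends, and ifa-3 has 1 point in all.

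The intermediate filaments are built from an essential partner, encoded by ifb-1, and from proteins of the A group such as the one encoded by ifa-3. At ifb-1, on chromosome II from 5765618 to 5772084 (plus strand), the best pooled region was the weakest of the 7 genes, with a score of 67.8 and rank 13782. It lay 32 bp upstream of the internal 5' end of transcript F10C1.2a.1. In replicate 2 it had rank 9476 and a score of 52.1, and no region of replicate 1 lay within 200 bp. The first region of replicate 1 was 1617 bp into the gene at rank 12241.

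At ifa-3, on chromosome X from 16267197 to 16270069 (minus strand), the picture was the opposite, with a single pooled region in 7.87 kb and that one in the IDR list. The summit at 16271355 had the highest score of the 3, 260.4, and rank 1802. Its scores in replicates 1 and 2 were 129 and 126, with ranks of 1758 and 2181 and with summits 57 and 33 bp from the pooled one. Both replicates thus called it within the first 2946 regions. It lay 1286 bp upstream of the ifa-3 5' end, which was the nearest protein-coding 5' end, and 4408 bp from that of sdc-1, a dosage compensation gene whose window holds it too. The base of the summit was inside a tRNA gene, WBGene00014388, of 72 bp from 16271296 to 16271367 on the minus strand, at base 13 of that gene. A ncRNA on the other strand, F52E10.7, overlaps the tRNA gene, and an antisense RNA, W10G6.5, runs through both. The sequence is shown because the tRNA gene takes up its centre; capitals mark the tRNA gene, and the strand is that of both ifa-3 and the tRNA gene.
ifa-3, chrX:16271255-16271455: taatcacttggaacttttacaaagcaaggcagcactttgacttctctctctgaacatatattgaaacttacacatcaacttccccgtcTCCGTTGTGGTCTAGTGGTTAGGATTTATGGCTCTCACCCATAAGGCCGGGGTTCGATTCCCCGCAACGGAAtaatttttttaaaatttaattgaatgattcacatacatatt
The GA repeat stood 54 bp from the summit, outside the tRNA gene and towards the 5' end of the printed strand, where it reads as its complement.

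Summits at tRNA genes were not rare in this list. Of the 2946 nuclear peaks 199 (6.75%) had a summit within 200 bp of a tRNA gene and 133 (4.51%) had it inside one. Conversely 208 of 612 nuclear tRNA genes (34%) had a summit within 200 bp. The ifa-3 window held 3 tRNA genes, and the other two had no region of the pooled list within 200 bp. When peaks within 200 bp of tRNA genes were left out, an alternative chosen after seeing the data, vab-10 remained as the only member with a summit and 18.6% of all genes had one. Whether the ifa-3 peak belongs to the filament gene or to the tRNA gene cannot be told apart from its position.

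The highest ranked regions of replicates 1 and 2 were 1 bp apart at vab-10 and 90 bp apart at ifa-3. They were 1690 bp apart at ifb-1, 4081 bp at vab-19, 7634 bp at mua-3, 9815 bp at mup-4 and 19181 bp at let-805. At mup-4 the top region of replicate 1 was matched 16 bp away in replicate 2 by the region second there, with a score of 42 against 42.5 for the first. At vab-19 the region 4109 bp upstream was second in both replicates, with summits 38 bp apart. Over all protein-coding genes with a region in both replicates, they were within 200 bp for 93.5% of 3912 genes with a summit and for 35.1% of 8127 genes without one. The first share is partly built into the choice of genes. Neither share was matched for window length, and the 5 members without a summit all fell in the quintile of longest windows. The nuclear IDR list equals the first 2946 regions of the pooled list, which draws on both replicates. Best pooled ranks of the 5 members without a summit ran from 7352 to 13782, and their best scores from 36.7% to 52.1% of the lowest IDR score. Counting all protein-coding genes, of which 7150 had no pooled region in their window, the share with a better ranked region than the member ran from 13.2% for ifa-3 to 49% for ifb-1. Within their own quintile of window length, the share with a better region was 14.6% for ifa-3, 25% for vab-10 and 56.3% (let-805) to 72.3% (ifb-1) for the 5 members without a summit.

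**Figure D3:**
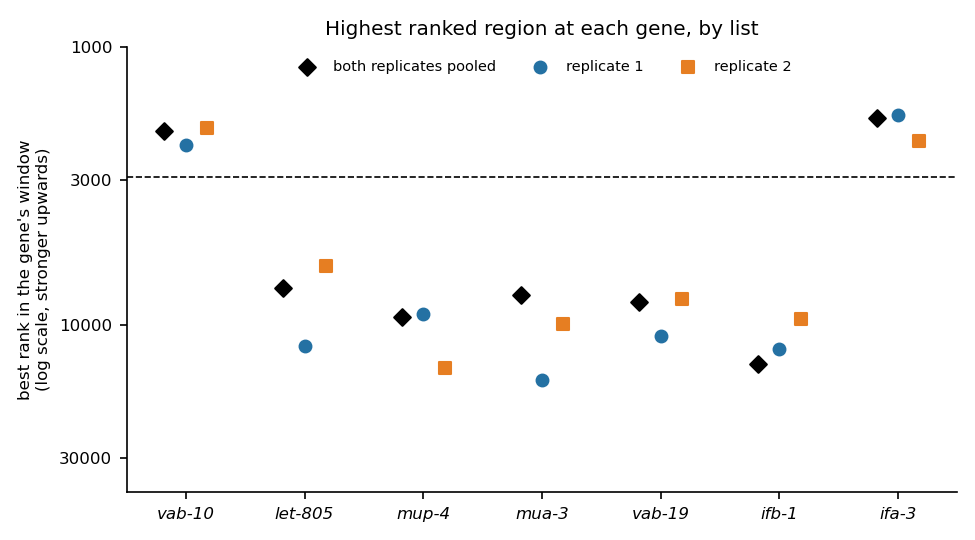
Best rank of any region in the window of each gene (vertical axis, log scale, stronger upwards) in the authors' list of both replicates pooled and in the lists of replicates 1 and 2. The dashed line is rank 2946, the length of the nuclear IDR list; vab-10 and ifa-3 are above it in all 3 lists and the other 5 genes are below it in all 3.

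Short sequences within 100 bp of the 3 member summits were compared with all IDR summits as a description. GAGAGAGA, read on both strands, was present at 3 of 3 member summits and at 16.3% of all IDR summits, and at none of the best pooled regions of the 5 other members, against 5.29% of all pooled regions. With 50 bp on each side it was present at 1 of 3, against 9.88% of all IDR summits. The general E-box CANNTG, which includes CAGCTG and CACCTG, was present at 3 of 3, against 61.1% of all IDR summits. CAGCTG was present at 1 of 3 (9.4% of all), and the CArG box at none (1.46% of all). CACCTG was also at none, against 6.59% of all. The same held for TGATAA, found at 10.6% of all. With 200 bp on each side a CArG box appeared at the ifa-3 summit, as at 2.27% of all IDR summits. A match is only a match of letters, and with 3 summits no share can be read from it.

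Other genes of the junction, and genes of the epidermis and cuticle more widely, were described with 5 lists, by the same window. By that rule 19.7% of all protein-coding genes had a summit, and 32.5% of those in the quintile with the longest windows. Among other genes of the epidermal attachment 4 of 8 had a summit. These were pix-1 with a score of 516, unc-23 with 349, git-1 with 258 and pak-1 with 220.0. Of these, unc-23 and git-1 were called by the narrower rule around 5' ends (9.27% of all genes), and pix-1 and pak-1 were not. The products of pix-1, git-1 and pak-1 form a signalling module that responds to muscle tension at the attachment, and unc-23 encodes a co-chaperone of the BAG type. The structural genes of this list, pat-12, mua-6 and ifa-1, had none, nor did the Rac gene ced-10. Their best pooled scores were 102, 54.9, 64.1 and 96.4.

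Among muscle adhesion genes, on the other side of the basement membrane, 8 of 9 had a summit, with 16 summits in all. The share over all protein-coding genes was 19.7%. The strongest were at the kindlin gene unc-112 with a score of 1239.7, the vinculin gene deb-1 with 750.4, the talin gene tln-1 with 736 and the integrin gene pat-3 with 469.8. The LIM domain gene unc-95 had none, with a best score of 166. Of the basement membrane genes 5 of 8 had a summit, among them the type IV collagen gene let-2 with a score of 851, lam-1 with 414, lam-2 with 293 and epi-1 with 258. The perlecan gene unc-52, the laminin gene lam-3 and the nidogen gene nid-1 had none. In the quintile of longest windows (32.5% of all genes) 6 of 6 muscle adhesion and 5 of 8 basement membrane genes had one. There 3 of 4 cuticle and epidermal junction genes and 1 of 2 other epidermal attachment genes also had one. Among fibrous organelle genes 1 of 6 did, and among epidermal regulators 0 of 4. Summits per 10 kb of window were 1.56 for muscle adhesion, 0.626 for basement membrane, 0.529 for other epidermal attachment genes, 0.446 for cuticle and epidermal junction genes, 0.182 for the 7 fibrous organelle genes and 0 for epidermal regulators. The value of 0.182 rests on 3 summits in 165 kb, of which the vab-10 window makes up 62.6 kb. No such rate was computed over all genes, so that none of these values can be called high or low. The narrower rule around 5' ends (9.27% of all genes) called 5 of 9 muscle adhesion and 5 of 8 basement membrane genes. Although deb-1 had a high score, it was not called by this rule. Called as well were 2 of 8 other epidermal attachment, 1 of 8 cuticle and epidermal junction and 1 of 7 fibrous organelle genes. These are descriptions of lists chosen by function with earlier results known, and the differences between them were not tested.

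None of the 5 epidermal regulators elt-1, elt-3, lin-26, nhr-25 and nhr-23 had a summit, a count too small to set apart from the 19.7% of all genes that had one. Of cuticle and epidermal junction genes 3 of 8 had one, the cadherin gene hmr-1 with a score of 549, dlg-1 with 264 and ajm-1 with 217. Only ajm-1 was called by the narrower rule around 5' ends (9.27% of all genes). The collagen genes dpy-7, rol-6 and sqt-3 had none. The strongest scores of vab-10 and ifa-3, 242 and 260.4, were thus in the range of dlg-1 and ajm-1 and below the best scores of 7 of the 9 muscle adhesion genes.

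**Figure D4:**
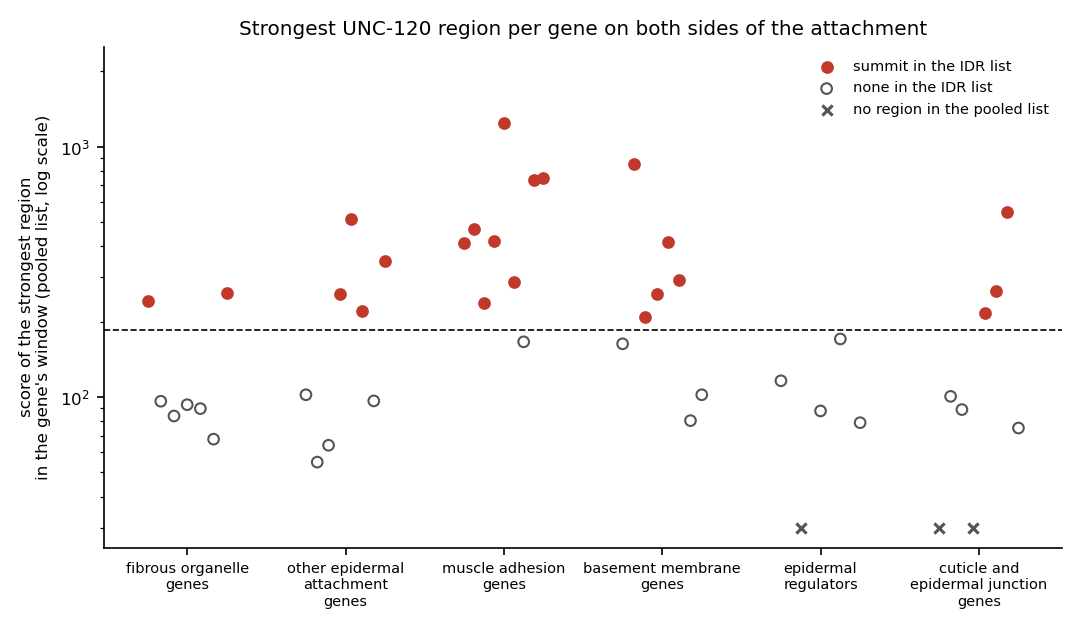
Score of the strongest region in each gene's window (vertical axis, pooled list, log scale) for the 7 fibrous organelle genes and 5 lists of the same junction and epidermis, 1 symbol per gene. The dashed line is the lowest IDR score, 185; filled symbols have an IDR summit, open symbols have none, and crosses at the bottom mark genes with no region in the pooled list. In muscle adhesion 8 of 9 genes are above the line, among the fibrous organelle genes 2 of 7.

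Genes most like vab-10 were taken as those with the same number of summits in their window and the nearest strongest score. There were 639 genes with 2 summits, vab-10 included. The nearest were rpac-19 and tbg-1, which share a strongest summit with a score of 242 and rank 2005, and sftd-3 with 244. With 1 group of samples this is a likeness in one list, not over conditions.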

How the data were processed

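UNC-120 ChIP-seq was deposited for 2 biological replicates as narrowPeak lists. Per the listing deposited with the samples, the ce11 lists were ranked lists, background included, of each replicate and of both pooled, and an IDR list derived from these 3. Column 7 is the score that the authors' software gave to each region, on a scale that is not stated. Column 9 is by the format's definition the -log10 of a q-value, as deposited, and was not used. Aligner and peak caller: not given in the sources used here. Read counts are not part of the lists. Depth is therefore unknown, and counting intervals are not given. The ce10 lists were not used, since coordinates were not converted between builds.

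Regions were set against WBcel235 (the sequence of ce11), Ensembl release 115 gene models and the RefSeq sequence of the same assembly; 0 regions ended beyond a chromosome. Mitochondrial regions were set aside (5 of 2951 in the IDR list). Ranks count nuclear regions by descending score. A region was matched in a replicate by the nearest summit within 200 bp. Scores are compared only within a list. Coordinates count from 1. No test was made, because there is 1 group and lists chosen by hand were only counted. The 7 genes, the 5 lists and the short sequences were chosen with earlier results of these data known. Named genes were all members, up to 4 genes with and 3 without a summit of each list, nearest genes, and the 3 genes most like vab-10; further list genes were named after their values were seen. No region was identical in both replicate lists. The window count was tested on simulated summits. Alternatives changed the window, the threshold, the replicate and the matching distance. Python 3.11.15, numpy 2.4.6, pandas 2.3.3 and matplotlib 3.10.9 were used.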

Additional observations from a re-analysis of the deposited data

How the results depend on the processing

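Members with a summit stayed at 2 when either replicate was left out (2 to 2), with windows from 2000 bp upstream (13.7% of all genes with a summit), when a summit counted only for the nearest 5' end and when a region needed only to touch the window. The windows from 2000 bp upstream held 2 summits in place of 3, because the vab-10 summit 2978 bp upstream fell outside. With windows from 1000 bp upstream 1 member (vab-10, 1 summit) was left, and 2155 genes of all had a summit. The rule around 5' ends also left 1. With windows from 10000 bp upstream 4 members and 6 summits were counted, and the share of all genes with a summit rose from 19.7% to 28%; the added summits lay 9480 bp upstream of mup-4, 8624 bp upstream of mua-3 and 5316 bp upstream of ifa-3, had ranks 2282, 2473 and 1423 and were nearer to cgh-1, nac-3 and sdc-1. Among the 1473 strongest peaks 0 members and 0 summits were left, and 2201 genes had a summit. Without peaks at tRNA genes 1 member was left. Summits ranged from 2 to 3 and genes with a summit from 3873 to 3952 when 1 replicate was left out. At the 5 members without a summit, none of 15 best ranks, with windows from 1000 bp upstream or in single replicates, was among the first 2946 (6152 to 15720). For the windows from 1000 bp upstream this was fixed beforehand, because they lie inside the windows already searched in the same pooled list. Only the ranks in single replicates could have come out otherwise. Matching within 100 or 500 bp changed none of 12 replicate ranks of member summits. It could not have, because the nearest summits of the replicates lay 0 to 57 bp from the pooled ones. Causes of these changes were not tested, apart from those given by position. No paired analysis was possible because all samples belong to 1 group. Since depth is unknown, weaker binding below the ends of the lists cannot be assessed.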
